A study of Mus musculus with 13 samples.

Results

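Replication-dependent histone genes encode the linker histone H1 and the core histones H2A, H2B, H3 and H4 that package newly made DNA. They were taken as protein-coding genes of the mouse clusters on chromosomes 13, 3 and 11 whose symbols start with H1f1 to H1f5, H2ac, H2bc, H3c or H4c, or whose older symbol starts with Hist1, Hist2 or Hist3. The rule found 66 of 21883 nuclear protein-coding genes, with 6 H1, 18 H2A, 18 H2B, 12 H3 and 12 H4 genes. It found 62 of them by their current symbol and 4 (H2bu2, H2aw, H4bc24 and H1f6) by the older symbol alone. H4bc24 carries an older H2B symbol and was counted with the H2B genes.

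Chromatin immunoprecipitation followed by sequencing (ChIP-seq) had been carried out in NU1 cells, a wild-type line of normal mouse urothelium that became immortal on its own during passaging. Quiescent cells had been grown to confluence in complete medium and then kept in that medium with 1 µM rosiglitazone, an agonist of PPARγ, and 0.5 µM erlotinib, an inhibitor of the EGF receptor. Proliferating cells had been grown in the complete medium. Antibodies against STAG2, STAG1 or CTCF (25 µg on 550 µg of chromatin) gave 6 groups of 2 biological replicates each, and a control sample was not analysed here.

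In dividing cells these genes are switched on in S phase, when NPAT gathers at them in the histone locus body, and their mRNAs end in a stem-loop instead of a poly(A) tail. Most of them lie back to back or side by side and have no introns, and many encode identical proteins. Cohesin, a ring-shaped complex that extrudes chromatin loops, contains either STAG2 or STAG1, and CTCF is the DNA-binding protein at which moving cohesin stops. Neither histone mRNA nor loops were measured in these data.

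The promoters of an H2A, an H3, an H4 and an H1 gene of the chromosome 13 cluster are shown because peak summits at these genes rarely lay in such windows and mostly lay downstream of them, inside the genes. Each is the 250 bases upstream of the gene start on the plus strand (RefSeq, GRCm38.p6): chr13:21716162-21716411 for H2ac13, chr13:21717378-21717627 for H3c10, chr13:21734784-21735033 for H4c11 and chr13:23738557-23738806 for H1f2. Capitals mark CCAAT on either strand (ATTGG on the other), TATAAA and TTCCCGC.
H2ac13: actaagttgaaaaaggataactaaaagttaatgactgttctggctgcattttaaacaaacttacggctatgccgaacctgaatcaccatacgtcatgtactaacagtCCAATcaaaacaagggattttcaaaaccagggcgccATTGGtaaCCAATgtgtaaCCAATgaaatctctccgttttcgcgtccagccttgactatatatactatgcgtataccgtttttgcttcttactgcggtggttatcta
H3c10: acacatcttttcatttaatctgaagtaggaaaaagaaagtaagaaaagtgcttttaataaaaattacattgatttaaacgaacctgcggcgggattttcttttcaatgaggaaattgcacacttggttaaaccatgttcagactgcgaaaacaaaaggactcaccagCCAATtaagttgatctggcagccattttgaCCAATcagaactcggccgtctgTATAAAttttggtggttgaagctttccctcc
H4c11: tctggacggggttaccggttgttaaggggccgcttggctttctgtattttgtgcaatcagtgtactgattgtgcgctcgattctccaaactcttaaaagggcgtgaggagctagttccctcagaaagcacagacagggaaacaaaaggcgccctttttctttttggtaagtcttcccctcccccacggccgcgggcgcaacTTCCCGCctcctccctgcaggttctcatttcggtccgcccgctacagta
H1f2: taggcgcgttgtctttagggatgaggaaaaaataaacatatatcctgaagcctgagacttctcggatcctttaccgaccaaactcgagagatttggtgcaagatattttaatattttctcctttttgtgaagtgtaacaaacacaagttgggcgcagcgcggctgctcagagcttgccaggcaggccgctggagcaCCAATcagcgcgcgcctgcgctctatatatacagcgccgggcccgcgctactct

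The H2ac13 window held 4 copies of CCAAT, the element bound by the factor NF-Y, and it is also the upstream region of H2bc13, which is read the other way. The H3c10 window held 2 copies of CCAAT and 1 TATAAA, which positions RNA polymerase II, and the H1f2 window held 1 CCAAT. The H4c11 window held no CCAAT and 1 TTCCCGC, a form of the E2F site. Motifs were counted on both strands of the 300 bases from 250 before to 50 after each start. A RefSeq entry was at hand for 61 of the 66 genes and gave 62 windows, since H2bc6 has 2 starts, and divergent neighbours share part of a window.

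CCAAT was in 54 of the 62 histone windows (87.1%), against 38.2% of all 21262 windows, and it was in every H1, H2A, H2B and H3 window but in 3 of 11 H4 windows. TATAAA was in 35 (56.5%, against 12.6%). The octamer ATTTGCAT, the site of OCT1 in H2B promoters, was in 14 (22.6%, against 1.66%), namely 7 H2A and 7 H2B windows and none of the other classes. AAACACAAA, an element of H1 promoters, was in 3 (4.84%, against 0.635%), namely 1 of 6 H1, 1 of 18 H2A and 1 of 17 H2B windows. TTTGAA, the CHR element of late cell-cycle genes, was in 28 (45.2%, against 16.0%). The E2F form TTCCCGC was in 6 (9.68%, against 5.95%), of which 5 were H4 windows, and TTGGCGC was in 1 (1.61%, against 3.09%). The CTCF core consensus was in none of the histone windows, against 0.560% of all windows, which says only that its letters are not in these windows.

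The 66 genes fell into 6 blocks, a block being genes less than 100 kb apart. Chromosome 13 held blocks of 18 genes over 121.8 kb (chr13:21715711-21837530), 5 genes over 8.5 kb (chr13:22035122-22043658), 29 genes over 233.4 kb (chr13:23531044-23764412) and 2 testis histone genes over 1.2 kb (chr13:23933725-23934913). Chromosome 3 held 10 genes over 50.3 kb (chr3:96219885-96270192), and chromosome 11 held H2bu2 and H2aw over 6.3 kb (chr11:58948911-58955192). All coordinates are mm10.

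The deposited lists held 34281 to 71757 peaks per library, and STAG2 lists were shorter in quiescent cells (38407 and 34281 peaks) than in proliferating cells (47295 and 45582). CTCF lists were of unequal length in quiescent cells (51835 and 71757), against 57528 and 55168 in proliferating cells, and STAG1 lists held 35594 and 36680 against 38857 and 50468. The number of reads behind each list is unknown, so a peak missing from a list may be a peak under that list's threshold. With 2 libraries a group, an exact test of a site could not pass a usual threshold, and no site was tested.

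Peaks of the 12 libraries that overlapped by at least 1 bp were joined into sites. Within 1 kb of the histone genes or between them there were 132 sites of 114651 in the genome. Of these, 67 lay within 1 kb of a histone gene, 14 elsewhere inside a block and 51 between the blocks of chromosome 13. Neighbouring genes share sites, so the genes are not independent of each other.

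The sites at the histone genes were shared by more libraries than the sites around them. Of the 67 sites at the genes, 33 (49.3%) had a peak in all 12 libraries, against 1 of the 14 other sites inside blocks and 10 of the 51 sites between blocks (19.6%). Over the whole cluster this was 44 of 132 sites (33.3%), against 15.9% of all sites in the genome. With 20000 peaks in every list the cluster had 16 such sites, and the share of all sites at that list length is not given. Sites called in a single library were 2 of 67 at the genes (2.99%) and 17 of 51 between blocks (33.3%), against 32.9% in the genome. CTCF was the sole antibody at 5 of the 67 sites (7.46%) and at 17 of the 51 (33.3%), against 35.4% of all sites.

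Most of the 66 genes were occupied in each group, a gene being called occupied when both libraries of the group had a peak within 1 kb of it. STAG2 occupied 63 genes in quiescent cells (95.5%, background 54.3%) and 60 in proliferating cells (90.9%, background 54.6%), the background being the share of all protein-coding genes with such peaks within 1 kb of either gene end. STAG1 occupied 53 genes in quiescent cells (80.3%, background 47.0%) and 59 in proliferating cells (89.4%, background 48.8%). CTCF occupied 58 genes in quiescent cells (87.9%, background 46.6%) and 63 in proliferating cells (95.5%, background 50.1%). All 6 groups occupied 50 genes, and no group occupied 2. The share of all protein-coding genes for these 2 counts is not given, so they cannot be set against a background.

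Histone genes are short and crowded, and the background depends on how it is drawn. Among all 2583 protein-coding genes no longer than 2 kb, 12.5% to 15.1% were occupied in the 6 groups. Counting peaks anywhere in a gene, which favours long genes, gave 58.3% to 64.4%. The shares for histone genes, taken with the 1 kb window, were above all of these backgrounds. With no window the occupied histone genes ran from 38 (STAG1 in quiescent cells) to 61 (STAG2 in quiescent cells), with 43 for CTCF in quiescent cells. No background is given for that setting, so it does not show whether the excess holds there. With each list held to its 20000 strongest peaks, STAG1 occupied 29 histone genes in quiescent and 32 in proliferating cells. The share of all genes at that list length is not given, so these counts cannot be set against a background.

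**Figure D1:**
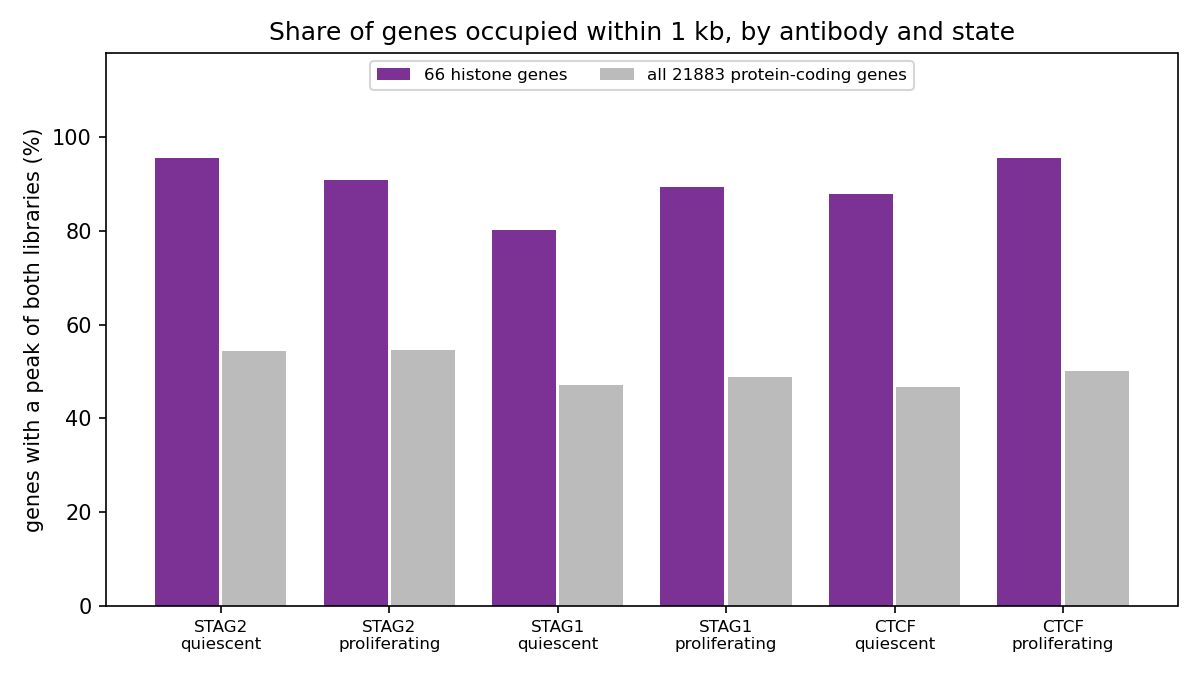
Share of genes (y axis, %) with a peak of both libraries of a group within 1 kb, for the 66 histone genes (purple) and all 21883 protein-coding genes (grey), by antibody and state (x axis). The histone bars stand between 80.3% and 95.5% and the grey bars between 46.6% and 54.6%.

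Counted library by library, STAG2 peaks lay at 65 and 63 histone genes in the quiescent libraries and at 61 and 62 in the proliferating ones. CTCF peaks lay at 58 and 61 genes in the quiescent libraries and at 63 in each proliferating one. STAG1 peaks lay at 56 and 59 genes in the quiescent libraries and at 59 and 65 in the proliferating ones. For STAG2 both quiescent libraries were above both proliferating ones, for CTCF both were below, and for STAG1 the higher quiescent library equalled the lower proliferating one. The CTCF order turned when each list was held to its 20000 strongest peaks. CTCF then occupied 45 genes in quiescent and 44 in proliferating cells, and STAG2 54 and 52. No share of all genes is given at that list length. In the full lists CTCF occupied 46.6% of all protein-coding genes in quiescent and 50.1% in proliferating cells, and STAG2 54.3% and 54.6%. The lower quiescent CTCF count was thus not particular to histone genes.

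By class, all 12 H3 genes, whose products carry much of the histone methylation, were occupied in all 6 groups. The same held for 16 of 18 H2A and 14 of 18 H2B genes, which form the dimers at the nucleosome's outer faces. Occupied in all 6 groups were also 3 of 6 H1 genes, whose products bind the linker DNA, and 5 of 12 H4 genes, which pair with H3. Among H4 genes STAG1 was the antibody missing most often, with 6 of 12 occupied in quiescent cells and 10 of 12 in proliferating cells. STAG2 occupied 12 and 11 H4 genes in these states, and CTCF 10 and 11. The 1 kb window also counts the peak of a neighbour. H2bc12, H2bc13, H2bc18 and H2bc23 were counted in all 6 groups without a CTCF summit in their first 500 bases in any library. H2bc14 was counted likewise with a peak of its own in 2 libraries. The class counts have no share of all genes beside them.

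The strength and the position of the peaks differed between the classes. Each peak has a fold enrichment at its summit, which is the authors' own value and ranks peaks only within its own list. Folds of the quiescent and proliferating libraries are given side by side as a description, and a gap between them shows no change. Summits in the first 500 bases of a gene were counted for the 61 genes with a RefSeq start, the length being chosen after the summits were seen. Most of these genes are little longer than that. Counted per gene and library over the genes with a single start, CTCF summits fell in the first 500 bases 162 times and in the 250 bases upstream 6 times. For STAG2 these were 189 and 8 times, and for STAG1 164 and 8 times.

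CTCF was strongest in the H2A genes. Of 18 H2A genes, 14 had a CTCF summit in their first 500 bases in all 4 CTCF libraries, with a median fold of 24.3 (range 12.7 to 33.4) in quiescent cells and 29.3 (13.9 to 36.2) in proliferating cells. Of 16 H2B genes, H2bu2 alone had such a summit in all 4 libraries, and 5 had none in any. The H2A summits of CTCF lay a median of 304 bases after the gene start (interquartile range 272 to 343.5).

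Among genes with a summit, this order of H2A over H2B held without overlap in each CTCF library. In quiescent library 1, H2A folds ran from 10.6 to 32.5 (15 genes) and the 1 H2B summit stood at 4.95. In quiescent library 2, H2A folds ran from 14.3 to 34.3 (14 genes) and H2B folds from 4.46 to 5.44 (3 genes). In proliferating library 1, H2A folds ran from 11.8 to 38.8 (15 genes) and H2B folds from 3.00 to 7.14 (7 genes). In proliferating library 2 the ranges were 16.0 to 38.3 (15 genes) for H2A and 2.57 to 6.50 (8 genes) for H2B. The lowest H2A gene with a summit was thus above the highest H2B gene each time. H2A genes without a summit in a library are not in these ranges.

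H3, H4 and H1 genes stood between these classes for CTCF. Of 10 H3 genes, 8 had a CTCF summit in all 4 libraries, with a median fold of 9.03 in quiescent cells and 14.5 in proliferating cells. Of 11 H4 genes 8 had one, with medians of 7.85 (8 genes) in quiescent and 9.50 (9 genes) in proliferating cells. Of 6 H1 genes 3 had one, with medians of 6.34 (3 genes) in quiescent and 7.17 (5 genes) in proliferating cells. Their summits lay nearer to the start than those of H2A, at a median of 166 bases in H3, 140 in H4 and 131 in H1 genes. The medians cover genes called in both libraries of a state, so they are not taken over the same genes in both states.

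STAG2 and STAG1 showed the same leading class with smaller gaps. STAG2 had a summit in all 4 libraries in 14 of 18 H2A genes, with median folds of 16.1 in quiescent and 12.8 in proliferating cells, and in 5 of 16 H2B genes, with medians of 6.25 (11 genes) in quiescent and 6.24 (6 genes) in proliferating cells. Its medians in quiescent against proliferating cells were 12.1 against 9.32 for H3, 9.33 against 8.42 for H4 and 10.9 against 7.89 for H1. The median fold of all peaks of these lists was also higher in quiescent (9.48 and 9.81) than in proliferating cells (7.98 and 6.99), and the median STAG2 percentile at the sites of histone genes was 62.4 and 46.3 against 56.8 and 62.5, so the higher quiescent folds were not particular to these genes. STAG1 had a summit in all 4 libraries in 13 of 18 H2A genes, with medians of 9 in quiescent and 11.3 in proliferating cells, and in none of the 16 H2B genes. The ranges of H2A and H2B folds overlapped in 3 of the 4 STAG2 libraries.

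**Figure D2:**
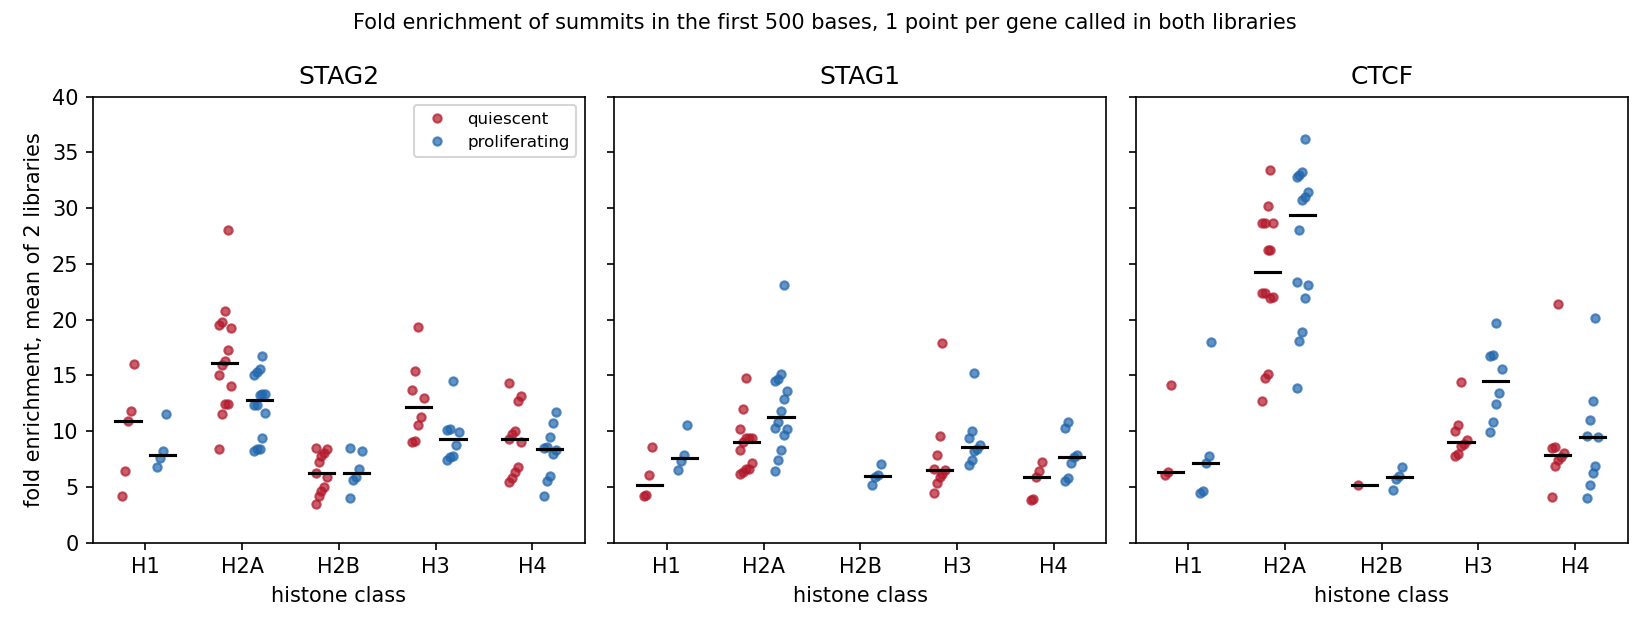
Fold enrichment of summits in the first 500 bases of a gene (y axis, mean of 2 libraries) by histone class (x axis), for STAG2, STAG1 and CTCF. Points are genes called in both libraries of a state (quiescent red, proliferating blue) and black bars are medians; the H2A genes stand highest for CTCF, with medians of 24.3 in quiescent and 29.3 in proliferating cells.

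**Figure D3:**
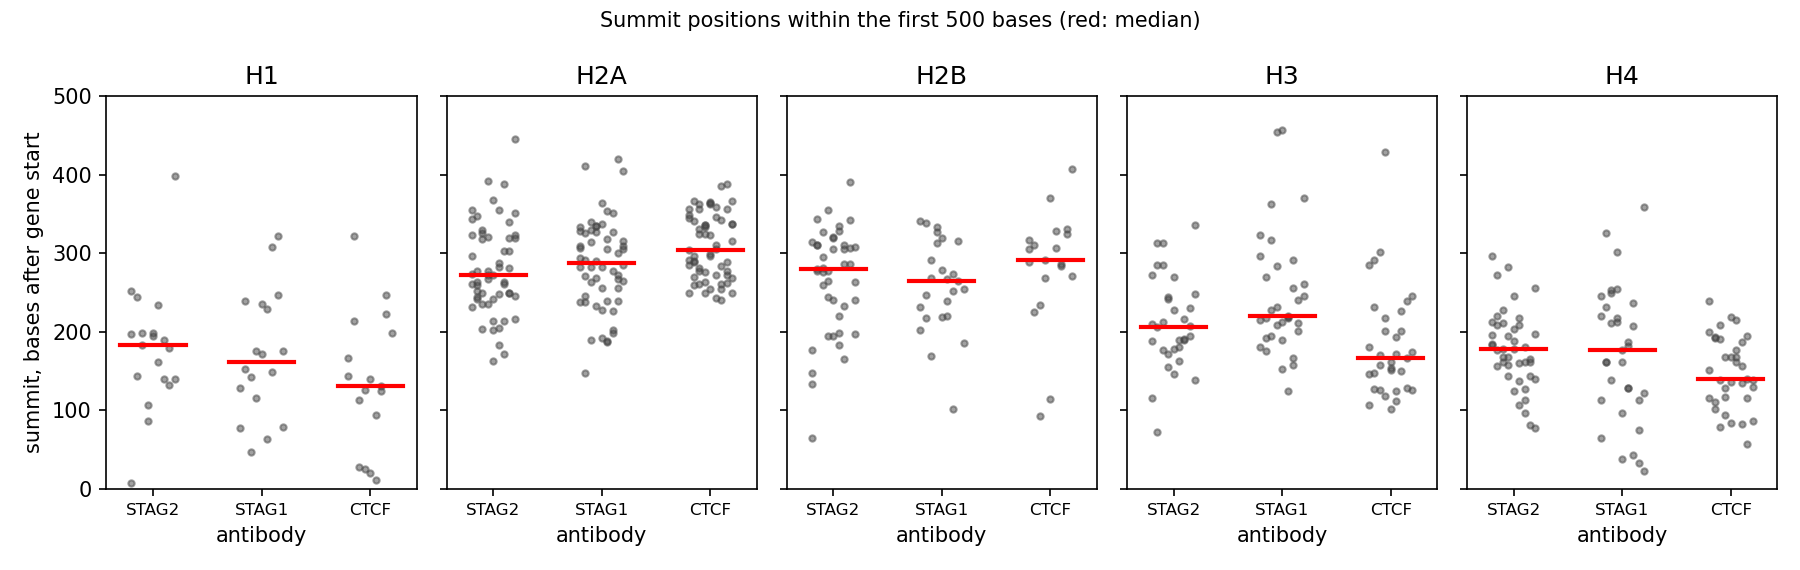
Distance of each peak summit from the gene start (y axis, bases) by antibody (x axis) in the 5 histone classes, 1 point per gene and library over all 12 libraries, with the median in red. CTCF summits of H2A genes lie around 304 bases and those of H4 genes around 140 bases.

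Many H2A and H2B genes are read in opposite directions from a shared promoter, and 10 such pairs had starts 164 to 281 bp apart. In 9 of the 10 pairs the H2A side had a CTCF summit in all 4 CTCF libraries and a higher fold than the H2B side, or the sole summit, in all 4. The H2B side had a CTCF summit in all 4 libraries in 0 of the pairs and in none in 4 of them. For STAG2 the H2A side was higher in all 4 libraries in 9 pairs, and for STAG1 in 8. The pair that remained for all 3 antibodies was H2ac1 and H2bc1, which encode testis forms of H2A and H2B. For STAG1 the pair of H2ac7 and H2bc7 also remained, with the H2A side higher in 3 of the 4 libraries.

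H2ac13 and H2bc13 show the pattern together with H3c10, and their site (chr13:21715624-21717001) lies within 1 kb of all 3 genes. At H2ac13 the folds were 21.7 and 17.3 in quiescent and 12.7 and 12.0 in proliferating cells for STAG2, 9 and 9.67 against 8 and 13.7 for STAG1, and 27.7 and 29.7 against 27.3 and 38.3 for CTCF. H2bc13, whose start is 229 bp away, had no CTCF summit of its own in the 4 libraries. The lists hold 1 summit per peak, and a single peak that covers both starts of a pair hides any weaker second summit. Such peaks covered 0 or 1 of the 10 pairs in each CTCF library and up to 4 in a STAG2 library.

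Genes outside the pairs, among them some whose neighbour has no RefSeq start, were compared in the same way. On chromosome 11, H2aw had CTCF folds of 32.5 and 34.3 in quiescent and 38.8 and 33.5 in proliferating cells. H2bu2, which ends 5.31 kb before it on the same strand, had 4.95 and 5.44 in quiescent and 7.14 and 6.50 in proliferating cells. Of 8 unpaired H2A genes, 5 had a CTCF summit in all 4 libraries and 2 in some of them, and of 6 unpaired H2B genes 1 had it in all 4 and 4 in some.

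Besides the testis gene H2ac1, 3 H2A genes lacked a CTCF summit in some of the 4 libraries. H2ac21 ends beside H2ac20 and shares its peak, whose summit lay in H2ac20 in all 12 libraries. H2ac18 and H2ac19 lie in inverted copies of a segment on chromosome 3 that also holds H3c14 and H3c15. The joined sites there were over 2 kb wide, and in most libraries no summit lay in the first 500 bases of either H2A gene.

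**Figure D4:**
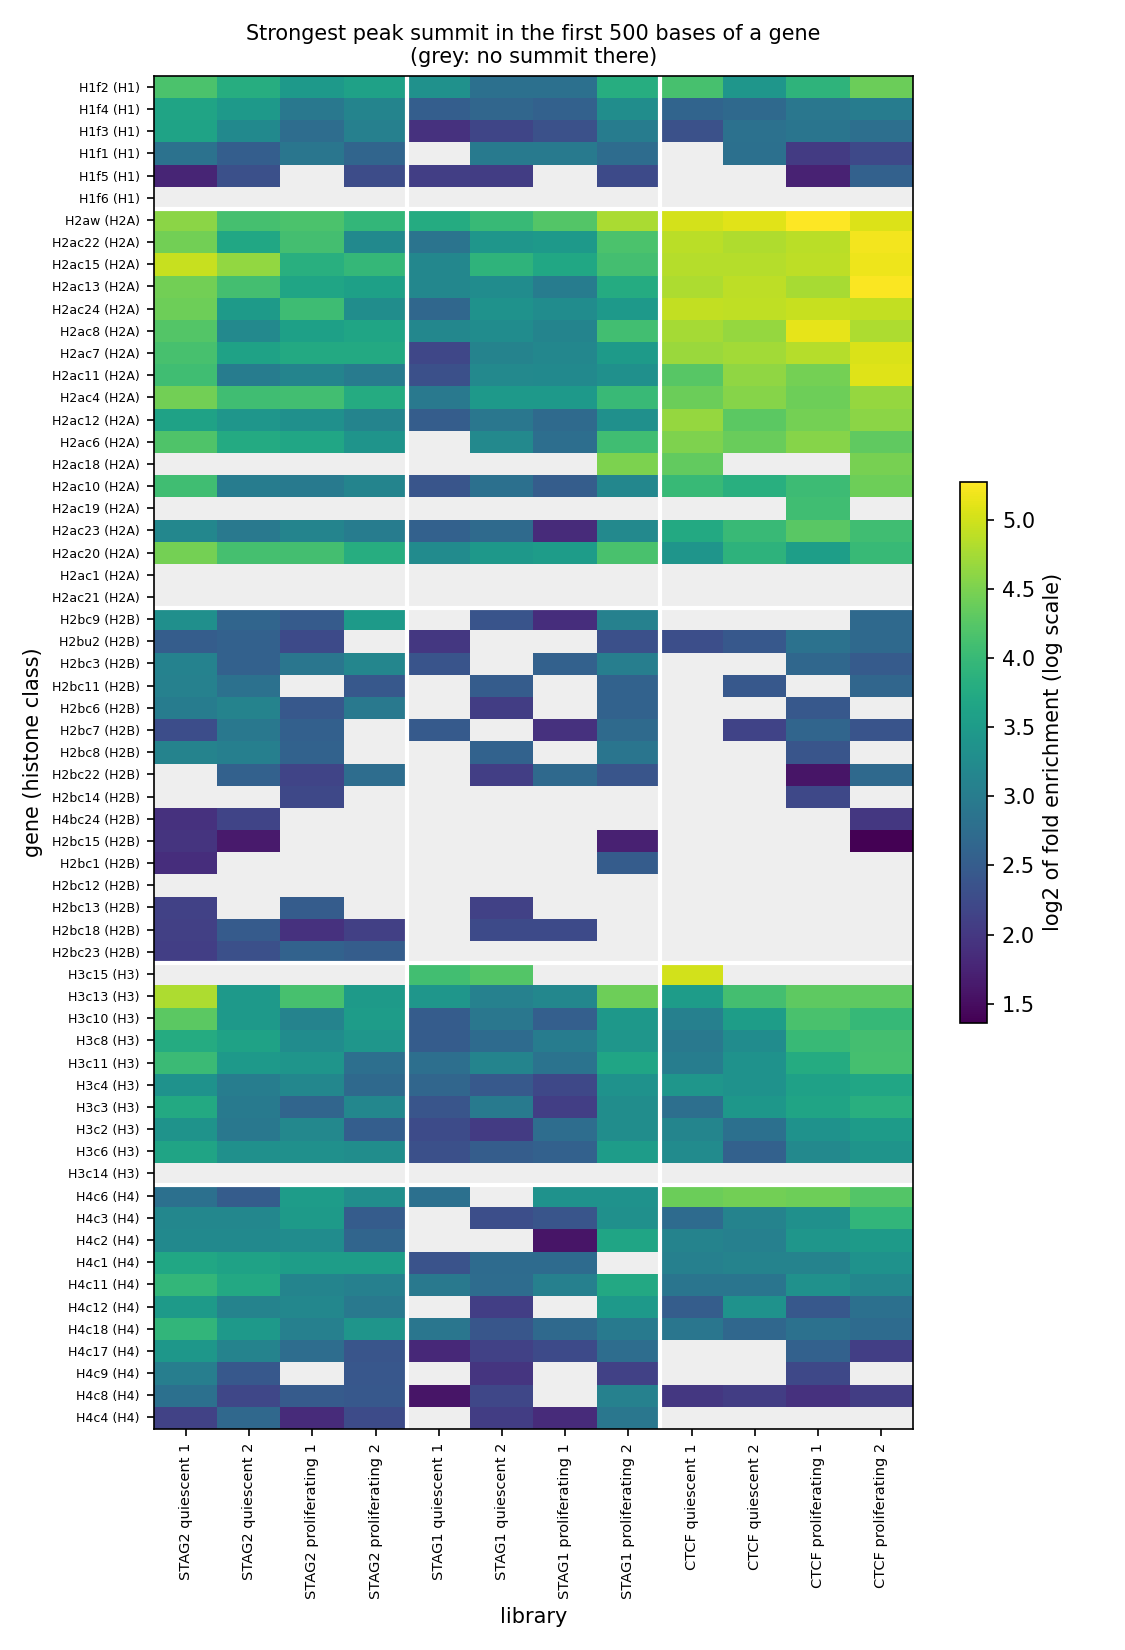
Log2 fold enrichment (colour, log scale) of the strongest summit in the first 500 bases of 61 histone genes (rows, grouped by class and ordered by CTCF fold) in the 12 libraries (columns, quiescent left of proliferating for STAG2, STAG1 and CTCF). Grey means that no summit lies there; CTCF is bright over 14 H2A genes in all 4 libraries and mostly grey over H2B genes.

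The duplicated segment on chromosome 3 carried the strongest sites at histone genes for STAG2. The site over H3c15 and H2ac19 (chr3:96238319-96240747) had STAG2 folds of 34.3 and 26.7 in quiescent and 26.3 and 23.7 in proliferating cells, and its mean rank within the lists that call it was at percentile 84.4. The site over H2ac18 and H3c14 (chr3:96244955-96247514) had 38 and 21.3 against 29.7 and 20.7, at percentile 84.1. Reads from such near-identical copies cannot be placed with certainty, and no source at hand states how the alignment handled them. The same holds to a lesser degree for all histone genes of a class, and its part in the counts was not tested.

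The other members by class are given here with the highest and the lowest of each. Among the H1 genes, H1f2 was highest, with CTCF folds of 17.6 and 10.7 in quiescent and 15.0 and 21.0 in proliferating cells and STAG2 folds of 18 and 14 against 11.0 and 12.1. H1f4 followed with STAG2 folds of 12.5 and 11.0 in quiescent and 7.60 and 8.75 in proliferating cells. Ranked within their own lists, the STAG2 summits stood at percentiles 75.6 and 68.4 in quiescent and 65.2 and 76.1 in proliferating cells at H1f2, and at 62.4 and 57.0 against 47.3 and 62.5 at H1f4, so the states overlapped at both genes.

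H1f1 and H1f5 were the lowest H1 genes with a summit. H1f1 was occupied in 4 groups, with STAG2 folds of 7.13 and 5.79 in quiescent and 7.44 and 6.20 in proliferating cells and no STAG1 or CTCF peak in quiescent library 1. H1f5 had no CTCF peak in either quiescent library, against folds of 3.32 and 6 in the proliferating ones. H1f6, the testis linker histone, had no STAG2 or STAG1 peak within 1 kb in any library. It was occupied in a single group, CTCF in proliferating cells, with folds of 7.67 and 4.67. That site lies outside the gene, 740 bp away, and is also within 1 kb of H4c3. Of the quiescent CTCF libraries, library 2 had a peak there, with a fold of 15.0, and library 1 had none.

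Among the H2A genes, H2ac23 was the lowest occupied gene by mean percentile over all antibodies, though H2ac20 was lower in CTCF alone, with CTCF folds of 13.4 and 16.2 in quiescent and 19.4 and 16.8 in proliferating cells. H2ac6 was occupied in 5 groups, for want of a STAG1 peak in quiescent library 1, and its CTCF folds were 23.0 and 20.8 in quiescent and 23.8 and 20.0 in proliferating cells. The testis pair H2ac1 and H2bc1 was occupied in no group. Its only peaks were 1 in STAG2 quiescent library 1, with a fold of 3.67, and 1 in STAG1 proliferating library 2, with a fold of 5.67.

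The H2B genes ranked highest share a joined site with an H2A neighbour, in which the strongest peak lay on the H2A side. H2bc15 and H2bc22 lie in sites whose CTCF folds were 28.7 and 28.7 in quiescent and 29.7 and 36.3 in proliferating cells for H2ac15, and 29.3 and 28.0 against 29.3 and 37.0 for H2ac22. H2bc14 and H2bc18 were the lowest, H2bc14 with a peak of its own in 2 libraries and a fold of 4.65 in each. H2bc18 had STAG2 folds of 4.31 and 5.60 in quiescent and 3.78 and 4.31 in proliferating cells and no CTCF peak of its own. The site over H2bc3 itself had no CTCF peak in either quiescent library, against folds of 6.34 and 5.59 in the proliferating libraries, and it had STAG2 folds of 8.57 and 5.96 against 7.46 and 8.95. A second site within 1 kb of H2bc3 kept CTCF in both quiescent libraries, with folds of 29.8 and 31.7.

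Among the H3 genes outside the chromosome 3 copies, H3c13 had STAG2 folds of 27.7 and 11.0 in quiescent and 17.7 and 11.3 in proliferating cells and CTCF folds of 11.5 and 17.3 against 19.7 and 19.7. H3c3 and H3c2 were the lowest by mean percentile over all antibodies, though H3c6 was lower in CTCF alone, with CTCF folds of 6.95 and 10.8 against 12.5 and 14.2 for H3c3, and 8.80 and 7.00 against 10.2 and 11.4 for H3c2, in quiescent against proliferating cells. At H3c8 the CTCF folds were 7.67 and 9.67 in quiescent and 16.0 and 17.3 in proliferating cells, a gene named after its values were seen. In each of the 8 H3 genes with a CTCF summit in all 4 libraries, the mean CTCF fold was higher in proliferating cells. Single libraries overlapped at H3c6, with 9.50 in quiescent library 1 and 9.25 in proliferating library 1. The site over H3c15 also covers H2ac19, and its CTCF folds were 32.4 and 28.0 in quiescent and 16.8 and 24.7 in proliferating cells. The 16.8 came from a summit in H2ac19, so these folds give no order of the states for an H3 gene. A change between the states was not tested.

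Among the H4 genes, H4c6 differed from its class. Its CTCF folds were 21.2 and 21.7 in quiescent and 21.3 and 18.8 in proliferating cells, while no other H4 gene had a CTCF summit above 15.3 in its first 500 bases. H4c11 had STAG2 folds of 15.5 and 13.2 in quiescent and 8.73 and 8.39 in proliferating cells. H4c4 was the lowest, with STAG2 folds of 4.40 and 6.40 against 3.6 and 4.80 and no CTCF peak in any library, and H4c8 had CTCF folds of 4.00 and 4.2 against 3.8 and 4.2.

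Other H4 genes missed a call in some libraries. H4c9 was occupied in 2 groups, and H4c3 and H4c14 in 5. H4c2 was the 1 site where STAG1 was lost, with no STAG1 peak in the quiescent libraries and folds of 3.00 and 12.7 in the proliferating libraries. Its STAG2 folds were 9.34 and 9.33 in quiescent and 9.67 and 6.25 in proliferating cells. Beside H4c14 lies a site (chr3:96261469-96262596) with CTCF folds of 18.1 and 28.9 in quiescent and 8.19 and 6.33 in proliferating cells, STAG2 in all 4 libraries and no STAG1 peak in any.

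Few sites of the clusters changed between the states. A site was called lost when both proliferating libraries of an antibody had a peak and neither quiescent one did, and gained in the opposite case. STAG2 lost 3 of the 71 cluster sites it had in proliferating cells (4.23%, background 10.2%) and gained 0 of 72 (background 1.93%). STAG1 lost 1 of 66 (1.52%, background 7.75%) and gained 0 of 58 (background 1.28%). CTCF lost 7 of 81 (8.64%, background 4.58%) and gained 2 of 67 (2.99%, background 7.64%). These counts are small and rest on both libraries: leaving out 1 library raised STAG2 losses to as many as 10 (without proliferating replicate 2), STAG1 losses to 9 (without proliferating replicate 1) and CTCF losses to 15 (without quiescent replicate 2). It raised gains to 5 for STAG2 (without quiescent replicate 2), 5 for STAG1 (without proliferating replicate 2) and 9 for CTCF (without quiescent replicate 1), the last above the 8 sites then lost.

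At the histone genes STAG2 lost 0 of 51 sites (background 10.2%) and gained 0 of 55 (background 1.93%). The 3 lost STAG2 sites lay between blocks, and 2 of them within 1 kb of Abt1 and of Btn1a1. The last (chr13:23524549-23525135) had STAG2 folds of 6 and 4.34 in the proliferating libraries, while STAG1 folds of 16.7 and 25.7 in quiescent and 31.0 and 10.7 in proliferating cells stood at the same place. CTCF was there too, with 10.3 and 23.0 against 21.0 and 8.67.

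At the histone genes CTCF lost 3 of 52 sites (5.77%, background 4.58%) and gained 0 of 43 (background 7.64%). The lost share lies near its background. The lost sites were those of H1f5, of H4c17 and of H2bc3, whose folds in proliferating cells did not exceed 6.34. H4c17 and H2bc3 kept another CTCF site within 1 kb. At H4c17 the CTCF folds were 6 and 4.25 in the proliferating libraries, and STAG2 folds were 10.8 and 8.67 in quiescent and 6.75 and 5.25 in proliferating cells. The mean fold rank of these sites in the lists that call them was at percentiles 12.3, 27.3 and 36.7. The other 4 lost CTCF sites and both gained ones lay away from the histone genes.

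STAG2 sites without CTCF were counted in each state. In quiescent cells 13 of 72 STAG2 sites (18.1%, background 15.6%) had no CTCF peak in either library of that state, against 5 of 71 (7.04%, background 18.3%) in proliferating cells. At the histone genes they were 9 of 55 (16.4%) in the quiescent state and 3 of 51 (5.88%) in the proliferating state. The sites at H4c4, at H2bc23 and at H2bc18 lacked CTCF in both states. The H2bc23 site is also within 1 kb of H2ac23, which had CTCF at a site of its own. When CTCF libraries of either state were counted, the 13 sites became 5. Leaving out STAG2 proliferating replicate 2 raised the proliferating count to 12, leaving out proliferating replicate 1 to 8, and leaving out STAG2 quiescent replicate 2 raised the quiescent count to 20. The quiescent share lies near its background, and the gap between the states rests on these libraries.

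STAG2 sites without STAG1 numbered 4 of 72 in quiescent cells (5.56%, background 7.92%) and 4 of 71 in proliferating cells (5.63%, background 6.13%). The site at H2bc23 and the one beside H4c14 lacked STAG1 in both states. These shares lie near the background but move with single libraries. The quiescent count became 10 without STAG2 replicate 2 and 9 and 17 without STAG1 replicates 1 and 2, and the proliferating count became 12 without STAG2 replicate 2 and 10 without STAG1 replicate 2. With 20000 peaks in every list the counts were 11 in quiescent and 0 in proliferating cells.

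Between the blocks the pattern was different, with few strong sites and long stretches without peaks. The strongest site (chr13:22028529-22029256), 5.87 kb before H2ac12, had folds of 67.7 and 49.6 in quiescent and 52.1 and 37.8 in proliferating cells for STAG2, and a mean rank at percentile 98.3. Its STAG1 folds were 58.2 and 48.3 against 57.3 and 49.4, and its CTCF folds 61.2 and 47.2 against 62.7 and 68.5. All 12 libraries called it, and no protein-coding gene lay within 1 kb.

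Next in rank came a site with no protein-coding gene within 1 kb (chr13:23432382-23433028, percentile 94.2) and a site within 1 kb of Abt1 (chr13:23424314-23424982, percentile 94.0). A site before the second block (chr13:21974044-21974664, percentile 85.3) followed. These sites were each called in all 12 libraries. The fifth (chr13:22747393-22747975) had CTCF alone, with folds of 13.4 and 28.5 in quiescent and 15.1 and 16.0 in proliferating cells. At the Abt1 site CTCF folds were 73.6 and 52.1 in quiescent and 67.8 and 71.9 in proliferating cells. The sites between blocks reached higher folds than any at the histone genes, where the highest in any library was 43.6.

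The longest gap, 1485.4 kb of chromosome 13, holds 41 protein-coding genes, of which 36 are Vmn1r genes for vomeronasal receptors. None of the 36 was occupied in any group. Their array (chr13:22087878-23250323, 1162.4 kb) held 10 sites, none in more than 4 libraries and 7 in a single one. Many of these genes are similar copies, and the part of read placement in this count was not tested.

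**Figure D5:**
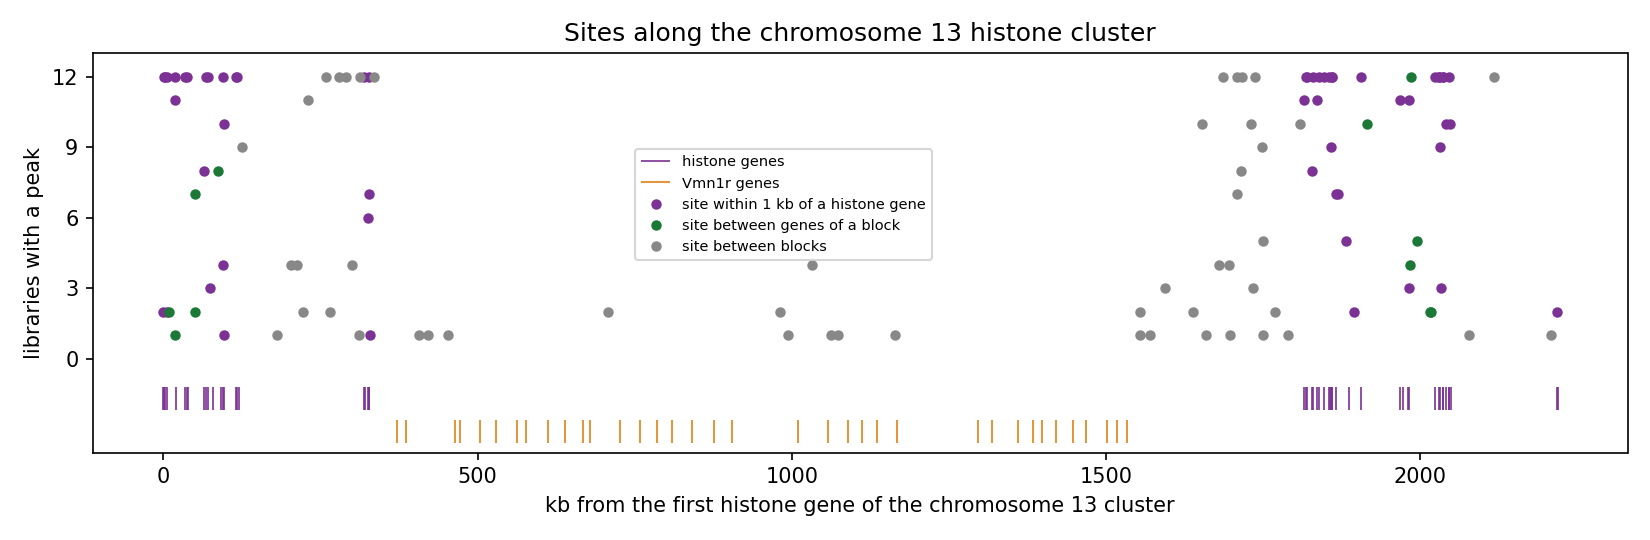
Sites along the chromosome 13 histone cluster: distance from the first histone gene (x axis, kb) and number of libraries with a peak (y axis), with histone genes (purple ticks) and Vmn1r genes (orange ticks) below. Sites at histone genes (purple) gather at 12 libraries, and the 10 sites over the Vmn1r array have at most 4.

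Genes that act on histone mRNA or sit in the histone locus body were occupied by STAG2 in 19 of 23 in quiescent and in proliferating cells, by STAG1 in 17 and 18, and by CTCF in 18 and 21. Npat, the coactivator of the locus body, had CTCF in both states and no cohesin call, and Casp8ap2, its partner, had none of the 3. Slbp, the stem-loop binding protein, had STAG2 and CTCF in both states and STAG1 in proliferating cells. The shares of the list ran from 73.9% to 91.3%, against 46.6% to 54.6% of all protein-coding genes.

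Histone genes outside the clusters, listed as replication-independent, were counted in the same way. Of 12 found, STAG2 occupied 10 in both states, STAG1 9 in quiescent and 10 in proliferating cells, and CTCF 10 and 11. These are 75% to 91.7% of the list, against 46.6% to 54.6% of all protein-coding genes. H2ax, H2az1 and H1f0 were occupied in all 6 groups. H3f3b, a source of replacement histone H3, had CTCF alone.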

How the data were processed

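Each of the 12 libraries came with 1 peak list. Per the submitters' processing notes, bcl2fastq, BWA, Picard, MACS2 and HOMER were used with the mouse build mm10; roles, versions, settings and the control used for calling are not given in the sources used here. Each peak carries a deposited fold enrichment ratio, −log10 p and q values and an integer score derived by the authors' caller; the score was not used. Lists were made per library.

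Computed here (Python 3.11.15, pandas 2.3.3, numpy 2.4.6): peaks of any library overlapping by 1 bp or more were joined into sites, genes were taken from RefSeq GRCm38.p6 without mitochondrial genes, and a gene was occupied by a group when both libraries had a peak within 1 kb. Fold percentiles were taken within a list. The steps were checked on simulated peaks. No test was run. The genes, lists and rules were chosen with earlier results of these data known. Named genes were, per class, the 2 highest and 2 lowest by fold percentile of the nearest site, those occupied in some or no groups, those at lost or gained sites, the 5 strongest sites between genes and the site shared by most genes; others are named as members of a counted set, pair or list. Alternatives covered the threshold, list length, window, joining, gene rule, background and leaving out each library.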

Additional observations from a re-analysis of the deposited data

Results flagged for a closer look

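The number of histone genes with a peak in a library moved in opposite directions for STAG2 and CTCF. Both quiescent STAG2 libraries had more such genes (65 and 63) than both proliferating ones (61 and 62), a mean difference of 2.5 genes. Both quiescent CTCF libraries had fewer (58 and 61) than both proliferating ones (63 and 63), a mean difference of -3.5 genes. The differences are 6.0 genes apart, and that difference was not tested. Among all protein-coding genes, CTCF occupied 46.6% in quiescent and 50.1% in proliferating cells, and STAG2 54.3% and 54.6%. The lower quiescent CTCF count was thus not particular to histone genes. With 20000 peaks in every list both antibodies had slightly more occupied histone genes in quiescent cells (54 against 52 for STAG2, 45 against 44 for CTCF), so the CTCF direction turned. No share of all genes is given at that list length. Neighbouring genes share peaks.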

How the results depend on the processing

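Of 216 alternative values for 20 counts, 171 stayed within 1.5 times the reported count and 45 did not. The 20000 strongest peaks of each library gave 4 sites inside blocks away from genes, 21 between blocks and 16 in all 12 libraries, 29 and 32 genes occupied by STAG1 in quiescent and proliferating cells, STAG2 gained 1, STAG1 lost 0 and gained 1, CTCF lost 4 and gained 1, STAG2 without STAG1 11 in quiescent and 0 in proliferating cells, and STAG2 without CTCF 2 in proliferating cells. Peaks with −log10 q of at least 5 gave STAG2 lost 1 and gained 2, and STAG2 without STAG1 10 in quiescent cells. Joining summits within 150 bp gave STAG2 gained 2, STAG1 lost 2 and gained 1, and STAG2 without STAG1 7 in quiescent cells. With no window 22 sites lay inside blocks away from genes, and with CTCF of either state 5 quiescent STAG2 sites lacked it. The cause of these moves was not tested, and no share over all genes or sites is given for these settings.

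Leaving out 1 library at a time leaves a call resting on 1 library of that group. STAG2 lost ranged from 3 to 10 (7 without quiescent replicate 1, 6 and 10 without proliferating replicates 1 and 2) and gained from 0 to 5 (5 without quiescent replicate 2, 4 without either proliferating replicate). STAG1 lost ranged from 1 to 9 (6 and 8 without quiescent replicates 1 and 2, 9 without proliferating replicate 1) and gained from 0 to 5 (2 without quiescent replicate 2, 5 without proliferating replicate 2). CTCF lost ranged from 8 to 15 (15 without quiescent replicate 2, 11 and 13 without proliferating replicates 1 and 2) and gained from 2 to 9 (9 without quiescent replicate 1). STAG2 without CTCF ranged from 14 to 20 in quiescent cells (20 without STAG2 replicate 2) and from 6 to 12 in proliferating cells (8 and 12 without STAG2 replicates 1 and 2). STAG2 without STAG1 ranged from 6 to 17 in quiescent cells (10 without STAG2 replicate 2, 9 and 17 without STAG1 replicates 1 and 2) and from 5 to 12 in proliferating cells (12 without STAG2 replicate 2, 10 without STAG1 replicate 2). Occupied gene counts and the counts of sites at genes and in all 12 libraries stayed within 1.5 times under each of these. No paired analysis was possible because the results are counts of peaks with no test. Lists without read counts limit every absent peak to the authors' threshold.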

Other observations

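H2A pseudogenes inside the clusters carried peaks like those of the H2A genes, an observation made after the values were seen. H2ac14 (chr13:21721442-21721801) had CTCF folds of 26.9 and 22.1 in quiescent and 30.8 and 36.7 in proliferating cells, with the summit inside the pseudogene in each library. H2ac5-ps (chr13:23746105-23746514) had 29.8 and 31.7 against 41.1 and 43.6, and STAG2 folds of 36.9 and 22.4 against 21.3 and 17.9. The 43.6 is the highest fold of any library at a site within 1 kb of a histone gene. The H2B pseudogene H2bu1-ps had a CTCF summit in 1 quiescent library (4.15) and 1 proliferating library (4.33), and STAG2 folds of 13.2 and 7.17 in quiescent cells against 6 in 1 proliferating library.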
